A study of Homo sapiens with 8 samples.

Results

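The H/ACA box small nucleolar RNAs and the small Cajal body RNAs were examined in NCCIT, a cell line from a human embryonic carcinoma, in which 1 of the TET enzymes had been depleted. Members were chosen by name, as every gene with a SNORA or SCARNA symbol followed by a digit among the transcript clusters that carry exactly 1 gene symbol. The rule gave 77 of 18417 genes on the array, 61 named SNORA and 16 named SCARNA. A transcript cluster is the group of probes that reports 1 transcript on this array design. The rule used no measured value.

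The TET enzymes oxidise 5-methylcytosine in DNA. Cells received small interfering RNA (siRNA) to TET1 (siTET1), to TET2 (siTET2), to TET3 (siTET3) or a non-targeting control (siNTC). Each of these 4 groups had 2 arrays, 8 in all, and apart from the siRNA no further treatment separates them in the labels. The labels do not say whether the 2 arrays of a group came from separate cultures, and the spread that enters the p-values may therefore be technical.

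An H/ACA snoRNA folds into hairpins and base-pairs with ribosomal RNA, so that the enzyme dyskerin converts a chosen uridine to pseudouridine. Small Cajal body RNAs do the same for spliceosomal small nuclear RNAs, and those with C/D boxes guide methylation of the ribose instead. In human cells most of both kinds are cut out of introns of other genes, many of which encode parts of the ribosome or of the translation and folding machinery, and the RNA is kept only if its core proteins bind it. Ribosome production is high in fast-growing cells.

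All 77 members lay inside a RefSeq gene of the assembly GRCh38.p14. Whether each lies in an intron and on the strand of that gene was not checked. A small RNA cut from an intron of its host shares the host's promoter. Hosts that belong to the translation machinery often start with a run of pyrimidines, a feature of transcripts whose translation follows growth signals. For that reason the bases around the annotated start are shown for genes that hold members described below. Each sequence is the gene's own strand from 10 bases before to 10 bases after the start, and capitals mark a run of at least 6 bases that are C or T and reach within 5 bases of the start. The windows are chr11:8682782-8682801 (plus strand) for RPL27A, which holds SNORA3A and SNORA3B, chrX:119791621-119791640 (minus) for RPL39 with SNORA69, chr9:127451397-127451416 (minus) for RPL12 with SNORA65 and chr12:6970655-6970674 (minus) for PHB2 with SCARNA12. They are chr1:235128828-235128847 (minus) for TOMM20 with SNORA14B, chr6:159789593-159789612 (minus) for TCP1 with SNORA20 and SNORA29, chr1:155934404-155934423 (minus) for KHDC4 with SNORA80E and SCARNA4, and chr17:67717926-67717945 (plus) for NOL11 with SNORA38B.
RPL27A: gaaggCCTTCCTTTTTCgtc
RPL39: ccgccagCTTCCCTCCTCTT
RPL12: cgatttccggCCTCTCggct
PHB2: gctgCCCTTTCTTTCgccag
TOMM20: tgtgctcggCCTTTCTgtgt
TCP1: tgtgttacccagtagctcct
KHDC4: gagaggtggtagtcggatag
NOL11: gccgtacttaggtttgctca

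The first 5 of these starts held such a run and the last 3 did not. Of 65 containing genes with a sequence in the RefSeq promoter table, 25 held a run (38.5%), against 21.9% of all 27305 promoters searched the same way on the gene's strand. MATR3 and SNHG4, both among the 25, have the same annotated start. Sequences of the small RNAs themselves were not used here.

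The values were deposited log2 intensities, and differences are on that scale, with the fit's standard error (SE). With the 95th percentile of olfactory receptor gene means as background, at a log2 value of 5.21, 71 members were above it by their mean and 69 were above it on every array. The 6 below it were SCARNA14, SNORA5B, SNORA70B, SNORA70C, SNORA70D and SNORA70F, and 0 of these 6 were past the test in the 6 comparisons. The pluripotency genes SOX2, SALL4, LIN28B, DPPA4 and L1TD1 were above background on all 8 arrays, and AFP, SOX17, PAX6, LUM, KRT7 and CGA, which mark endoderm, neural cells, fibroblasts and trophoblast, on 0. Other markers of those types, GATA4 and GATA6 (endoderm), GFAP (glia) and COL1A1 and COL3A1 (fibroblasts), were dim but above background on all 8, at 5.23 to 6.33, and the mesoderm gene TBXT was above it on 1. GATA6 was higher in siTET2 (0.34 ± 0.11) and siTET3 (0.53 ± 0.11). The neuronal gene STMN2 was also bright, at 10.42 and 10.46 on the siNTC arrays and higher in each depletion (0.81 to 1.20). The part of GATA6 and STMN2 in the small RNA results was not tested. The siNTC arrays correlated with depletion arrays at 0.989 to 0.991 over genes, and arrays of different depletions at 0.995 to 0.998. Each siRNA lowered its target, by 0.68 ± 0.048 for TET1 in siTET1, 0.88 ± 0.095 for TET2 in siTET2 and 1.08 ± 0.15 for TET3 in siTET3, to 62.3%, 54.4% and 47.4% of siNTC. Other TETs moved as well. TET1 was lower in siTET2 (-0.30 ± 0.048, adjusted p = 0.000287) and higher in siTET3 (0.42 ± 0.048, adjusted p = 1.69e-05), and TET2 was lower in siTET3 (-0.47 ± 0.095, adjusted p = 0.00177), so the depletions do not differ in 1 TET alone. In bulk RNA, fewer cells of a type and less RNA per cell cannot be told apart.

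The comparisons with siNTC asked how the small RNAs differed in cells with a lowered TET transcript. They share the same 2 siNTC arrays. In siTET2 the family moved most to one side, with 38 members higher and 8 lower of 77, and in siTET1 25 were higher and 15 lower. In siTET3 28 were higher and 13 lower. A member was called at a Benjamini-Hochberg adjusted p under 0.05 over all genes in limma. The share of members called was 51.9% in siTET1, where 34.3% of all genes were called (15.6% higher and 18.7% lower). In siTET2 it was 59.7%, against 36.2% of all genes (14.4% higher, 21.8% lower), and in siTET3 53.2%, against 36.1% (13.8% higher, 22.3% lower). Among genes above background the shares were nearer, at 56.3%, 64.8% and 57.7% of the 71 members and 45.4%, 48.0% and 47.8% of 12749 genes. The median difference of the 77 members was 0.14, 0.28 and 0.15, where that of all genes was -0.03, -0.04 and -0.02. A called change of at least 1.5-fold was found for 9 higher and 3 lower members in siTET1, where 5.13% of all genes had one, for 16 higher and 0 lower in siTET2 (6.16% of all genes), and for 8 higher and 4 lower in siTET3 (5.91%). In siTET2 the lower calls without a fold threshold numbered 8 (10 at an unadjusted p under 0.05). Both arrays of a depletion lay above both siNTC arrays for 38 members and below them for 17 in siTET1 (65.8% of all genes did either), for 51 and 11 in siTET2 (67.7%), and for 39 and 20 in siTET3 (64.1%). With each of the 8 arrays left out in turn, 29, 36 and 26 of the 40, 46 and 41 calls were made every time. Between depletions this held for 7 of 25 calls (siTET2 minus siTET1), 7 of 13 (siTET3 minus siTET1) and 17 of 32 (siTET3 minus siTET2).

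**Figure D1:**
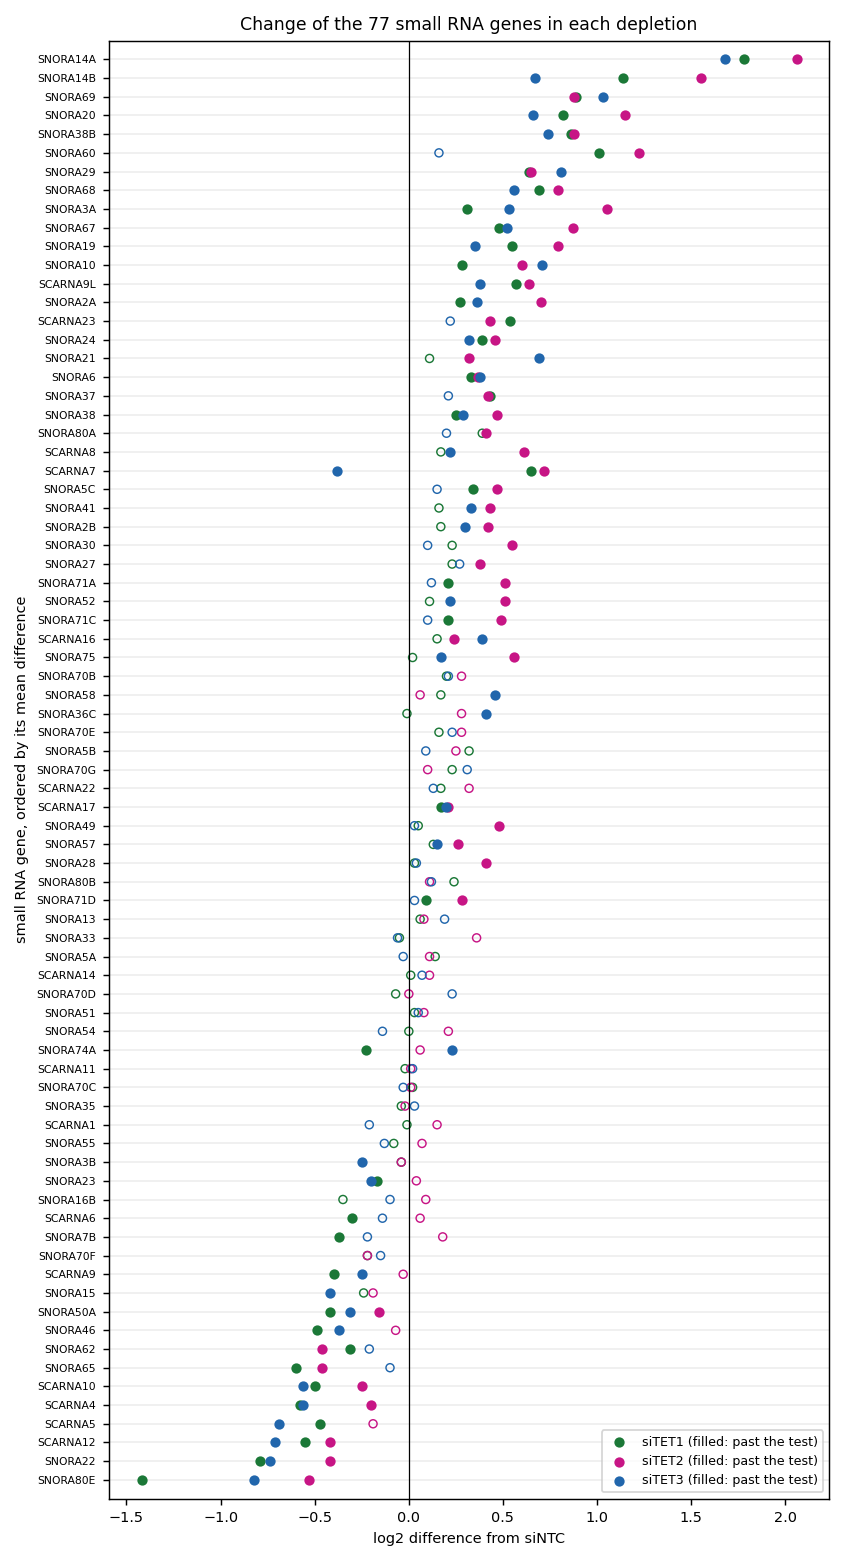
Log2 difference from siNTC (horizontal axis) of each of the 77 small RNA genes (vertical axis, ordered by the mean of the 3 differences) for the 3 depletions, with points filled where the limma test was passed and open where it was not. SNORA14A and SNORA14B lie at the top, SNORA80E at the bottom, and SCARNA7 has 2 points to the right and 1 to the left of 0.

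Levels on single arrays were compared next. For each of the 71 members above background the value on an array was set against its own mean over the 8 arrays. The median over members was -0.12 and -0.17 on the siNTC arrays, 0.16 and 0.17 on the siTET2 arrays, and between -0.045 and 0.001 on the siTET1 and siTET3 arrays. Of the 71 members, 61 and 64 were above their own mean on the siTET2 arrays, and 22 and 20 on the siNTC arrays. Of all 12749 genes above background, 5667 and 5870 were above it on the siTET2 arrays, and 7179 and 6556 on the siNTC arrays. The siTET2 mean was the highest of the 4 groups for 41 members, and for 2073 of the 12749 genes. The siNTC mean was the lowest for 44 members, a position not counted over all genes. Among the 3 depletions siTET2 was highest for 52 of 71 members, a position it held for 26.7% of all genes above background. The C/D box snoRNAs outside the SNORD115 and SNORD116 clusters, which guide ribose methylation, had medians of 0.17 and 0.15 on the siTET2 arrays and -0.19 and -0.24 on the siNTC arrays over 66 genes. The medians of all 12749 genes above background stayed between -0.041 and 0.028.

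**Figure D2:**
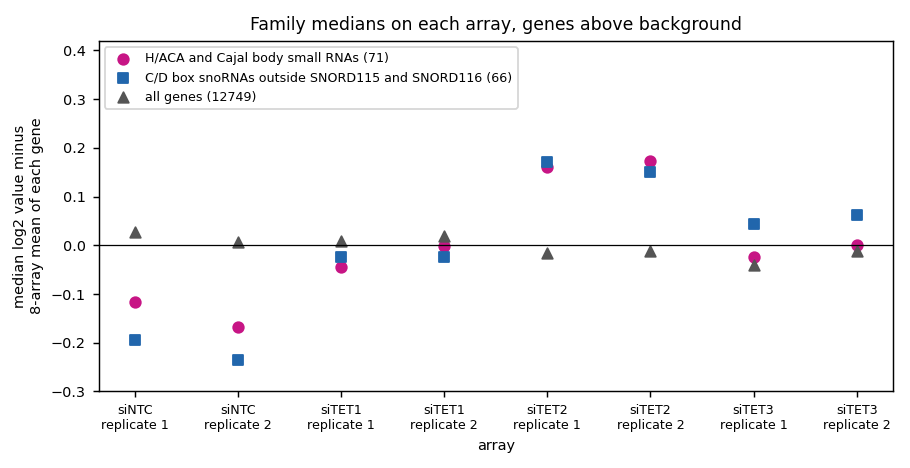
Median over genes of the log2 value minus the gene's own mean over the 8 arrays (vertical axis), on each array (horizontal axis), for the 71 small RNAs above background, 66 C/D box snoRNAs and all 12749 genes above background. Both small RNA families are lowest on the siNTC arrays and highest on the siTET2 arrays, and all genes stay near 0.

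Of the 77 members, 17 were higher in all 3 depletions, 6 were lower in all 3 and 20 were past the test in none. How many of all genes had the same calls in all 3 was not counted. The 3 comparisons share the siNTC arrays, so their calls are not independent. The 17 were SCARNA17, SCARNA9L, SNORA2A, SNORA3A, SNORA6, SNORA10, SNORA14A, SNORA14B, SNORA19, SNORA20, SNORA24, SNORA29, SNORA38, SNORA38B, SNORA67, SNORA68 and SNORA69. The 6 were SCARNA4, SCARNA10, SCARNA12, SNORA22, SNORA50A and SNORA80E. With each array left out in turn, 12 of the 17 and 3 of the 6 passed in all 3 comparisons every time, and the exceptions were SCARNA17, SCARNA9L, SNORA19, SNORA2A and SNORA38 and, among the lower, SCARNA10, SCARNA4 and SNORA50A. A further 8 were higher in siTET2 and siTET3 and 7 in siTET1 and siTET2. The dimmer cluster of SCARNA17, not used for the gene, was at 0.18, 0.10 and 0.12 and past the test in none. That of SCARNA9L passed in siTET2 only. SCARNA7 was higher in siTET1 and siTET2 and lower in siTET3, and SNORA74A was lower in siTET1 (-0.23, and -0.18 and not past the test without siTET1 replicate 1) and higher in siTET3.

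SNORA14A, which lies in POR, the reductase that supplies electrons to cytochrome P450 enzymes, had the largest differences of the family. Its log2 value was 6.22 and 6.31 in siNTC, 7.96 and 8.13 in siTET1, 8.33 and 8.31 in siTET2, and 7.87 and 8.01 in siTET3. All 6 depletion arrays thus lay above both siNTC arrays, by more than the replicates differed from each other. The rise was 3.43-fold in siTET1 (1.78 ± 0.080, adjusted p = 8.36e-09), 4.16-fold in siTET2 (2.06 ± 0.080, adjusted p = 1.64e-09) and 3.20-fold in siTET3 (1.68 ± 0.080, adjusted p = 1.23e-08). POR itself was at -0.16 ± 0.053, -0.24 ± 0.053 and -0.09 ± 0.053, past the test as a decrease in siTET1 and siTET2. The POR call in siTET1 was lost without siTET1 replicate 1 (-0.12) and without either siNTC array (-0.16 and -0.17). The 24 nearest genes above background around SNORA14A on chromosome 7 had medians of 0.16, 0.21 and 0.17.

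SNORA14B, a second locus of the same snoRNA name on chromosome 1, lies in TOMM20, an import receptor of the outer mitochondrial membrane. Its values were 7.18 and 6.94 on the siNTC arrays, 8.11 and 8.30 in siTET1, 8.66 and 8.57 in siTET2, and 7.66 and 7.80 in siTET3. Here too no depletion array reached down to the siNTC arrays, and the siTET3 arrays lay below those of the other depletions. The differences were 1.14, 1.55 and 0.67 (SE 0.092), and TOMM20 rose by less, at 0.34, 0.47 and 0.43. Probe sequences were not used here, so how far loci of 1 snoRNA name share signal cannot be told apart from a change of each.

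Other large increases were in SNORA20 and SNORA29, which both lie in TCP1, a subunit of the cytosolic chaperonin that folds actin and tubulin. SNORA20 was at 9.03 and 9.06 in siNTC, 9.88 and 9.84 in siTET1, 10.14 and 10.25 in siTET2, and 9.63 and 9.77 in siTET3. The siNTC arrays were the lowest and the siTET2 arrays the highest, with no overlap of either with another group. The differences from siNTC were 0.82, 1.15 and 0.66 (SE 0.055). SNORA29 rose by 0.64, 0.65 and 0.81 (SE 0.10), with no difference between depletions past the test. TCP1, whose start is shown above without a pyrimidine run, was at 0.06, 0.01 and 0.04 (SE 0.032), and 0 of these 3 values were past the test (0.194 to 0.776, adjusted).

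SNORA69, in the ribosomal protein gene RPL39, read 7.28 and 7.25 in siNTC, and the 6 depletion arrays lay between 8.04 and 8.33. Its differences of 0.89, 0.88 and 1.03 (SE 0.083) were nearly equal, and none of the 3 differences between depletions passed the test (adjusted p 0.288 to 0.984). SNORA38B, in the ribosome biogenesis gene NOL11, behaved likewise, at 6.94 and 7.05 on the siNTC arrays and from 7.73 to 7.97 on the depletion arrays. Its differences were 0.86, 0.88 and 0.74 (SE 0.087), and those of NOL11 were 0.12, 0.13 and 0.09, falling to 0.06 and 0.07 in siTET1 and siTET2 without siNTC replicate 2.

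SNORA3A and SNORA3B lie in the same gene, RPL27A, which encodes a protein of the large ribosomal subunit and starts with the pyrimidine run shown above. SNORA3A was at 11.61 and 11.60 in siNTC, 11.92 and 11.92 in siTET1, 12.67 and 12.64 in siTET2, and 12.12 and 12.14 in siTET3. The 4 groups were fully separated, with siTET2 highest. SNORA3A rose by 0.31, 1.05 and 0.53 (SE 0.030). SNORA3B was at -0.04 and -0.04 in siTET1 and siTET2, not past the test, and fell by 0.25 ± 0.065 in siTET3 (adjusted p = 0.00924), a call lost without siTET3 replicate 1 (-0.18) or siNTC replicate 1 (-0.22). With all arrays the pair had opposite calls in siTET3, and both lie in 1 host gene.

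SNORA60, which lies in the host gene without a protein SNHG11, was past the test in siTET1 and siTET2. In siNTC it was at 6.71 and 6.05, in siTET1 at 7.33 and 7.46, in siTET2 at 7.64 and 7.57 and in siTET3 at 6.38 and 6.70. The siNTC arrays were far apart and the siTET3 values lay between them. The differences were 1.01 ± 0.17 (adjusted p = 0.000376), 1.22 ± 0.17 (adjusted p = 7.30e-05) and 0.16 ± 0.17 (adjusted p = 0.508), and without siNTC replicate 1 the siTET3 difference was 0.49 and past the test. The test between depletions put siTET3 below siTET1 by 0.85 ± 0.17 (adjusted p = 0.00492) and below siTET2 by 1.07 ± 0.17 (adjusted p = 0.00129). Its SE pools the spread of all 4 groups, and both calls were also made in a fit of the 4 arrays compared, without siNTC. The first was lost without siTET1 replicate 2, at -0.79.

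SNORA21 and SNORA10, both in ribosomal protein genes (RPL23 and RPS2), had their highest means in siTET3. SNORA21 was at 11.17 and 11.06 in siNTC, 11.25 and 11.19 in siTET1, 11.41 and 11.45 in siTET2, and 11.82 and 11.79 in siTET3. The siTET3 arrays stood above all the others, and those of siTET1 began just above siNTC. It was higher than siNTC by 0.69 ± 0.042 in siTET3 and 0.32 ± 0.042 in siTET2, and by 0.11 ± 0.042 in siTET1, which was not past the test (adjusted p = 0.0668, and past the test at 0.16 without siNTC replicate 1). SNORA10 rose by 0.28, 0.60 and 0.71 (SE 0.058), and its difference between siTET3 and siTET2 did not pass the test (0.11, adjusted p = 0.266). The array holds 2 clusters of SNORA10 with the same values on every array, so the signal cannot be assigned to 1 locus. RPS2, the RefSeq host of SNORA10, was at -0.08, -0.00 and -0.01.

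The largest decrease of the family was in SNORA80E, which lies with SCARNA4 in KHDC4, a gene for an RNA-binding protein. SNORA80E was at 9.36 and 9.08 in siNTC, 7.70 and 7.89 in siTET1, 8.64 and 8.74 in siTET2, and 8.43 and 8.36 in siTET3. No groups overlapped, and siTET1 was lowest. The RNA fell to 37.3% of its siNTC level in siTET1 (-1.42 ± 0.090, adjusted p = 1.27e-07), to 69.3% in siTET2 (-0.53 ± 0.090) and to 56.5% in siTET3 (-0.82 ± 0.090). SCARNA4 fell by 0.58, 0.20 and 0.56 (SE 0.063), and KHDC4 by 0.22 ± 0.047 in siTET1 and siTET3, with -0.06 in siTET2. SNORA80E and SCARNA4 were higher in siTET2 than in siTET1, by 0.89 ± 0.090 and 0.38 ± 0.063, and KHDC4 was at 0.16 ± 0.047 (adjusted p = 0.0682). The second of these calls was lost without siTET1 replicate 1 (0.30) or siTET2 replicate 2 (0.34), and KHDC4 passed, at the same 0.16, without either siNTC array. The SCARNA4 decrease in siTET2 was not past the test without siTET2 replicate 1 (-0.16), without siNTC replicate 1 (-0.17) or without an intensity trend (-0.20).

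SNORA22 lies on chromosome 7 at 65755526 to 65755659, in the non-coding genes LINC03006 and CCT6P1. In siNTC it was at 12.84 and 13.07, in siTET1 at 12.14 and 12.18, in siTET2 at 12.54 and 12.53 and in siTET3 at 12.21 and 12.21. Every depletion array was below both siNTC arrays. It fell by 0.79, 0.42 and 0.74 (SE 0.055). Its 24 nearest genes above background had medians of -0.82, -0.88 and -0.81. The part of this shared shift in the SNORA22 result was not tested. Between depletions, where those neighbours were at -0.01 to 0.01, SNORA22 was higher in siTET2 than in siTET1 by 0.38 ± 0.055 and lower in siTET3 than in siTET2 by 0.33 ± 0.055.

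SNORA65, in the ribosomal protein gene RPL12, was at 8.44 and 8.40 in siNTC, 7.80 and 7.84 in siTET1, 7.91 and 8.0 in siTET2, and 8.29 and 8.34 in siTET3. The siTET1 and siTET2 arrays lay well below the others, and the siTET3 arrays just below siNTC. It fell by 0.60 ± 0.063 in siTET1 and 0.46 ± 0.063 in siTET2, and was at -0.10 ± 0.063 in siTET3 (adjusted p = 0.230). SNORA62 and SNORA6 share the host RPSA, which encodes a protein of the small ribosomal subunit, and moved apart. SNORA6 rose by 0.33, 0.37 and 0.38 (SE 0.070), while SNORA62 fell by 0.31 ± 0.086 in siTET1 and 0.46 ± 0.086 in siTET2. In siTET3 SNORA62 was at -0.21 ± 0.086 (adjusted p = 0.0789, and past the test at -0.30 without siNTC replicate 1). The SNORA62 call in siTET1 was lost without siTET1 replicate 2 (-0.27) or siNTC replicate 2 (-0.22).

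**Figure D3:**
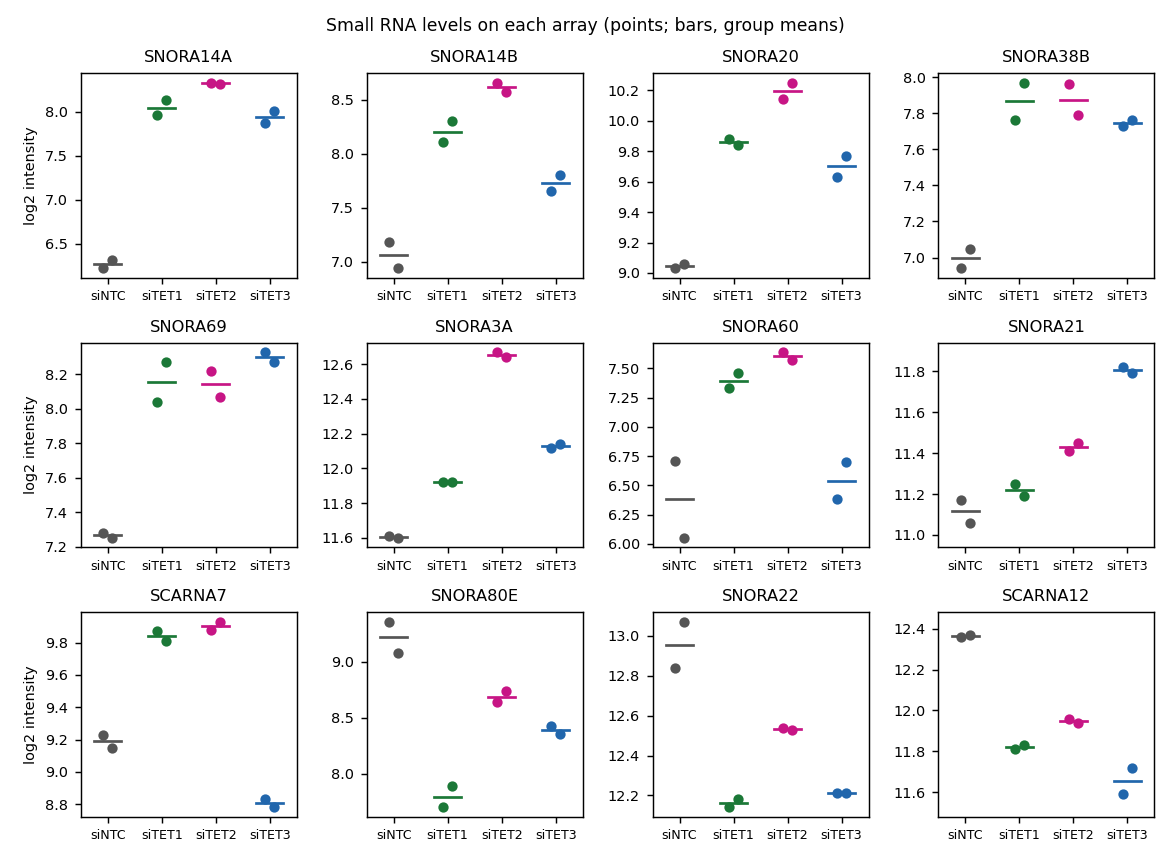
Log2 intensity (vertical axes, scaled for each gene) of 12 small RNAs on each array of siNTC, siTET1, siTET2 and siTET3 (points; bars, means of 2 arrays). SNORA14A is near 6.3 on the siNTC arrays and between 7.87 and 8.33 on the 6 depletion arrays, and SCARNA7 is above siNTC in siTET1 and siTET2 and below it in siTET3.

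The 16 small Cajal body RNAs were split more evenly in count. Of the 16, 4 were higher and 6 lower in siTET1 (62.5% called, against 34.3% of all genes), 6 and 3 in siTET2 (56.2% against 36.2%), and 4 and 6 in siTET3 (62.5% against 36.1%). The SNORA members had 21 higher and 9 lower, 32 and 5, and 24 and 7. Whether the 2 kinds differed was not tested. Their lengths differ, with a median of 226 bases (125 to 421) for SCARNA and 134 bases (123 to 236) for SNORA genes in RefSeq.

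Of the small Cajal body RNAs, 7 were classed here as having C/D boxes, alone or joined to H/ACA hairpins. They were SCARNA5, SCARNA6, SCARNA7, SCARNA9, SCARNA10, SCARNA12 and SCARNA17. In siTET1 all 7 were past the test, 2 higher and 5 lower. In siTET2 2 were higher and 2 lower, and in siTET3 1 was higher and 5 were lower. Of all genes, 15.6% were higher and 18.7% lower in siTET1, 14.4% and 21.8% in siTET2, and 13.8% and 22.3% in siTET3. Their median differences were -0.40, -0.03 and -0.38. The other 9 had medians of 0.15, 0.24 and 0.13. In the 3 depletions 2, 4 and 3 were higher, and 1 was lower each time, SCARNA4. These 9 include SCARNA9L, a locus related to the C/D guide SCARNA9 that was not in the list of C/D guides. SCARNA9L was at 0.57, 0.64 and 0.38, so the counts and medians of both sets depend on where it is placed.

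SCARNA7, a C/D guide of the spliceosomal U1 RNA, lies in KPNA4, which encodes an importin of the nuclear import machinery. In siNTC it was at 9.23 and 9.15, in siTET1 at 9.87 and 9.81, in siTET2 at 9.88 and 9.93 and in siTET3 at 8.83 and 8.78. The siTET1 and siTET2 arrays overlapped no siNTC array and lay above, whereas both siTET3 arrays lay below. SCARNA7 rose by 0.65 ± 0.050 in siTET1 (adjusted p = 5.80e-07) and by 0.72 ± 0.050 in siTET2 (adjusted p = 2.04e-07), and fell by 0.38 ± 0.050 in siTET3 (adjusted p = 4.83e-05). Tested directly, siTET3 was at 48.8% of siTET1 (-1.04 ± 0.050, adjusted p = 2.01e-07) and at 46.6% of siTET2 (-1.10 ± 0.050, adjusted p = 1.31e-07). KPNA4 was at 0.27, 0.12 and 0.01 against siNTC (SE 0.042), and lower in siTET3 than in siTET1 by 0.25.

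Among the guides that carry both box types, SCARNA12 lies in PHB2, a mitochondrial prohibitin, and SCARNA10 in NCAPD2, a condensin subunit. SCARNA12 was at 12.36 and 12.37 in siNTC, 11.81 and 11.83 in siTET1, 11.96 and 11.94 in siTET2, and 11.59 and 11.72 in siTET3. Each depletion lay below siNTC by far more than replicates differed. It fell by 0.55, 0.42 and 0.71 (SE 0.040), and its host PHB2 fell as well, by 0.36, 0.42 and 0.37 (SE 0.047). SCARNA10 fell by 0.50, 0.25 and 0.56 (SE 0.066), while NCAPD2 was at -0.05, -0.16 and -0.06 (SE 0.037), past the test in siTET2 but not without siTET2 replicate 1 (-0.13). The SCARNA10 decrease in siTET2 was not past the test without siTET2 replicate 2 (-0.21) or siNTC replicate 1 (-0.19).

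SCARNA5 and SCARNA6 lie in ATG16L1, an autophagy gene. SCARNA5 fell by 0.47 ± 0.082 in siTET1 and by 0.69 ± 0.082 in siTET3, and was at -0.19 ± 0.082 in siTET2 (adjusted p = 0.0996, and past the test at -0.32 without siNTC replicate 1). SCARNA6 fell by 0.30 ± 0.084 in siTET1, a call lost without siTET1 replicate 2 (-0.26) or siNTC replicate 2 (-0.27), and was at 0.06 and -0.14 in siTET2 and siTET3 (-0.24 and past the test in siTET3 without siTET3 replicate 2). SCARNA9 fell by 0.40 ± 0.088 in siTET1 and 0.25 ± 0.088 in siTET3, while SCARNA9L, a related locus on chromosome X in EIF1AX, rose by 0.57, 0.64 and 0.38 (SE 0.090). In siTET3 the SCARNA9 call was lost without any 1 of 5 arrays, at -0.11 without siNTC replicate 1, and that of SCARNA9L was lost without siTET3 replicate 1 (0.27) or siNTC replicate 2 (0.24). A dimmer SCARNA9 cluster, which was not used for the gene, was at -0.10, 0.05 and -0.37, with the siTET3 value past the test. The dimmer SCARNA9L cluster, also not used, was at 0.36, 0.43 and 0.08, with only the siTET2 value past the test.

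SCARNA16 overlaps a microRNA on the same stretch of chromosome 17, so that its cluster may report either transcript. In RefSeq the RNA spans chr17:77089307-77089493, and the hairpin of MIR6516 spans chr17:77089417-77089497 (plus strand). The mature microRNAs of that hairpin are shown because the cluster's signal cannot be told apart between the 2 transcripts. Their seeds, bases 2 to 8, are in capitals.
hsa-miR-6516-5p: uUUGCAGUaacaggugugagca
hsa-miR-6516-3p: aUCAUGUAugauacugcaaaca

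SCARNA16 rose by 0.24 ± 0.059 in siTET2 (adjusted p = 0.00660) and by 0.39 ± 0.059 in siTET3 (adjusted p = 0.000148), and was at 0.15 ± 0.059 in siTET1 (adjusted p = 0.0614). The siTET2 call was lost without siNTC replicate 2 (0.18), and without siNTC replicate 1 the siTET1 difference passed the test at 0.21.

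The comparisons between depletions asked whether the levels differed with the TET targeted. The siNTC arrays enter them only through the variance that the fit pools over the 4 groups. From siTET1 to siTET2, 25 members were higher and 0 lower of 77, a share of 32.5% where 6.46% of all genes were called (2.33% higher, 4.13% lower). At an unadjusted p under 0.05, 41 were higher and 0 lower in limma. The median member was at 0.17 and the median gene at -0.02. Of the 25, 20 were named SNORA and 5 SCARNA, and 2 reached 1.5-fold, SNORA80E (0.89 ± 0.090) and SNORA3A (0.74 ± 0.030, adjusted p = 6.31e-08). SNORA7B, in the pseudogene RPL32P3, followed with 0.55 ± 0.095, and SNORA75, in the nucleolin gene NCL, with 0.55 ± 0.060. The NCL transcript was at -0.08 ± 0.034. The SNORA7B call was lost without siTET1 replicate 1 (0.40) or either siTET2 array (0.53 and 0.57). Of all genes, 0.364% were called at 1.5-fold. Both siTET2 arrays lay above both siTET1 arrays for 50 members and below for 0, and 51.0% of all genes were apart in either direction. The number fell to 6 without an intensity trend in the fit, and to 13, 14, 11 and 9 without siTET1 replicate 1, siTET1 replicate 2, siTET2 replicate 1 and siTET2 replicate 2.

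From siTET2 to siTET3, 2 members were higher and 30 lower, 41.6% of the 77 where 12.2% of all genes were called (4.94% higher, 7.24% lower). The median member was at -0.21 and the median gene at 0.01. SCARNA7 (-1.10), SNORA60 (-1.07) and SNORA14B (-0.89 ± 0.092) fell most, followed by SNORA3A (-0.52 ± 0.030) and SCARNA5 (-0.51 ± 0.082). The 2 higher members were SNORA21 (0.37 ± 0.042) and SNORA65 (0.36 ± 0.063), both in genes of large-subunit ribosomal proteins. At 1.5-fold 0 were higher and 3 lower, beside 0.516% of all genes. The siTET3 arrays were apart from and above those of siTET2 for 12 members and below for 45 (52.8% of all genes in either direction). The number called was 20 and 19 without siTET2 replicate 1 and replicate 2.

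From siTET1 to siTET3 the share of members called was near that of all genes. There were 8 higher and 5 lower members, 16.9% of the 77 beside 13.8% of all genes (3.82% higher, 9.94% lower), and the median member was at 0.02. Higher were SNORA80E (0.60 ± 0.090), SNORA21 (0.58 ± 0.042), SNORA65 (0.50 ± 0.063), SNORA74A (0.46 ± 0.055), SNORA10, SNORA36C, SCARNA16 and SNORA3A. Lower were SCARNA7, SNORA60, SNORA14B (-0.48 ± 0.092), SCARNA12 (-0.16 ± 0.040) and SNORA68 (-0.13 ± 0.034). The SCARNA12 call was lost without either siTET1 array, without siTET3 replicate 1, without an intensity trend and in a fit of the 4 arrays alone, at -0.17 to -0.09. Calls of SNORA36C and SNORA14B were lost without siTET1 replicate 2 (0.34 and -0.39), that of SNORA36C without siTET3 replicate 1 as well (0.29), and those of SCARNA16 (0.24 to 0.25) and SNORA68 (-0.15 to -0.11) without either siTET1 array or siTET3 replicate 1. At 1.5-fold 1 was higher and 2 lower (0.505% of all genes), and the arrays were apart for 21 higher and 23 lower members (54.1% of all genes). The number called was 7 without siTET1 replicate 2 and 20 without siTET3 replicate 2.

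Against siNTC, 33, 48 and 40 of the 75 C/D box snoRNAs were higher in siTET1, siTET2 and siTET3, and 14, 7 and 9 lower. The shares called were 62.7%, 73.3% and 65.3%, against 34.3%, 36.2% and 36.1% of all genes. They were higher in siTET2 than in siTET1 as well, with 26 of 75 higher and 1 lower and a median of 0.18. That was 36.0% called, against 6.46% of all genes. From siTET2 to siTET3 the C/D box snoRNAs had 2 higher and 16 lower (24.0% called, against 12.2% of all genes). Their median was -0.08 where the H/ACA and Cajal body members had -0.21. From siTET1 to siTET3 13 C/D box snoRNAs were higher and 3 lower (21.3% called, against 13.8% of all genes), with a median of 0.07. The difference between the families was not tested.

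**Figure D4:**
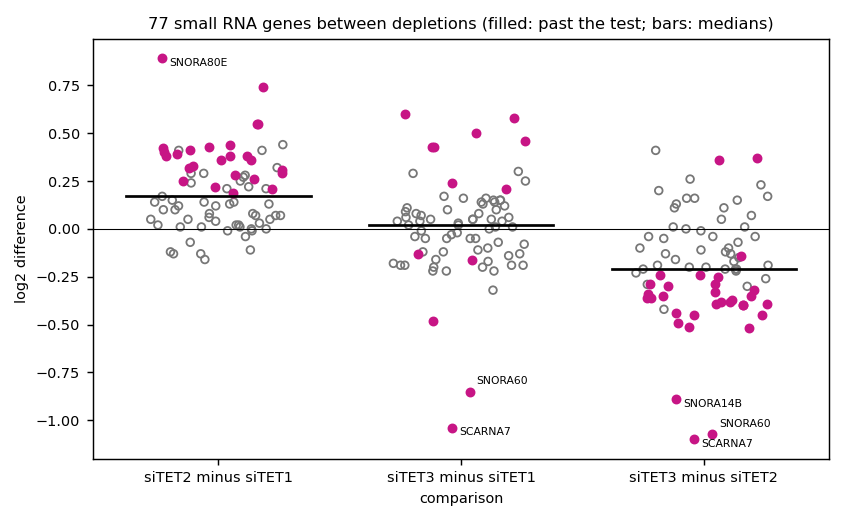
Log2 difference (vertical axis) of the 77 small RNA genes in each comparison between depletions (horizontal axis, points spread sideways for clarity; bars, medians). Filled points were past the limma test: 25 above 0 from siTET1 to siTET2, 8 above and 5 below from siTET1 to siTET3, and 2 above and 30 below from siTET2 to siTET3.

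Several members share a gene, and those cut from 1 transcript are not independent. In all, 9 hosts held more than 1 member. In SNHG17, a host without a protein product, SNORA71A, SNORA71C and SNORA71D rose in siTET2 by 0.51 ± 0.053, 0.49 ± 0.039 and 0.28 ± 0.030, and SNHG17 by 0.28 ± 0.042. In siTET3 SNHG17 rose by the same 0.28 ± 0.042, while the 3 snoRNAs were at 0.12, 0.10 and 0.03 and not past the test (adjusted p 0.0523 to 0.412), though SNORA71A passed at 0.19 without siTET3 replicate 1. From siTET2 to siTET3 the 3 fell by 0.39, 0.38 and 0.25, and SNHG17 was at -0.00 ± 0.042. In CNOT1, a scaffold of the deadenylase complex, SNORA46 and SNORA50A fell in siTET1 by 0.49 ± 0.14 and 0.42 ± 0.052, and CNOT1 was at -0.02 ± 0.034. The SNORA46 call was lost without siTET1 replicate 1 (-0.32) or siNTC replicate 2 (-0.40). In KANSL2, a chromatin gene, SNORA2A and SNORA2B rose in siTET2 by 0.70 ± 0.088 and 0.42 ± 0.090, and KANSL2 by 0.27 ± 0.049.

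Over all members, 63 had exactly 1 measured host, and these were 53 different genes. Against siNTC, member and host were called the same way for 15, 19 and 15 of the 63 in siTET1, siTET2 and siTET3, and opposite ways for 4, 7 and 5. The small RNA alone was called for 13, 10 and 14, and the host alone for 23, 18 and 20. Pearson's r between the differences was 0.29, 0.22 and 0.22, a description over points that share arrays and hosts. Of the 53 hosts 66.0%, 69.8% and 60.4% were called, against 34.3%, 36.2% and 36.1% of all genes. Among genes above background the shares were nearer, at 45.4%, 48.0% and 47.8%. How many joint calls the shares of members and hosts alone would give was not computed. The hosts themselves had medians of 0.10, 0.03 and 0.01. In the comparison of siTET2 with siTET1, 24 small RNAs were called whose host was not, and 0 together with their host, and the hosts had 1 higher and 4 lower of 53, a share of 9.43% beside 6.46% of all genes and 9.21% of those above background.

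**Figure D5:**
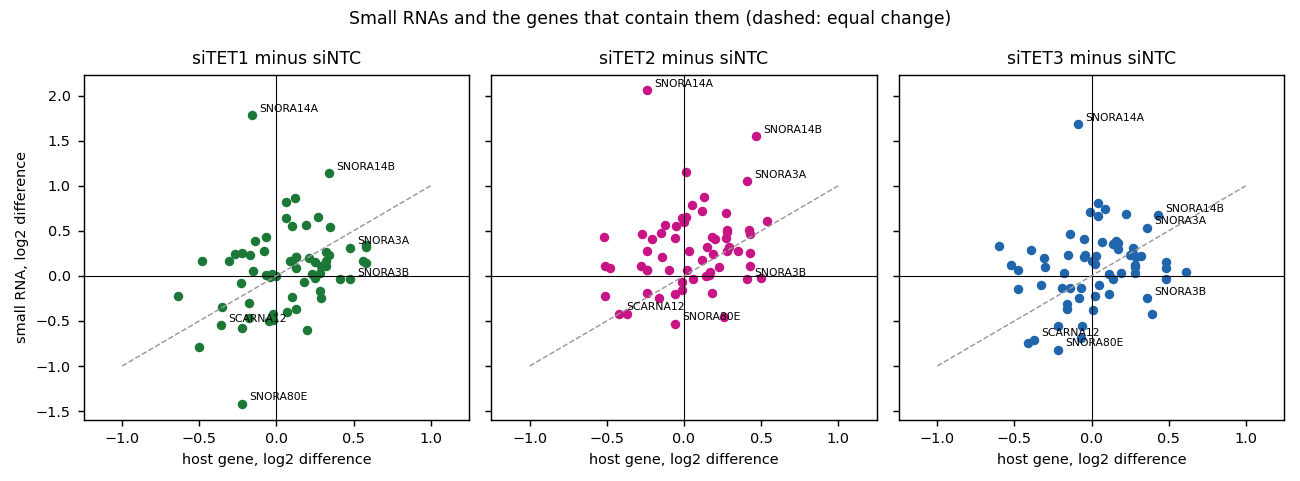
Log2 difference of the 63 small RNAs with 1 measured host (vertical axis) against that of the host gene (horizontal axis) in siTET1, siTET2 and siTET3 minus siNTC; the dashed line marks equal change. Points scatter widely about the line, with r of 0.29, 0.22 and 0.22, and SNORA14A lies far above it while POR is below 0.

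The 4 core proteins of H/ACA particles were dyskerin, DKC1, the pseudouridine synthase, and its partners NHP2, NOP10 and GAR1. DKC1 was at 9.52 and 9.46 in siNTC, 9.61 and 9.60 in siTET1, 9.45 and 9.45 in siTET2, and 9.77 and 9.84 in siTET3. It was thus highest in siTET3, where it rose by 0.32 ± 0.046 (adjusted p = 0.000127), and was at 0.12 and -0.04 in siTET1 and siTET2, not past the test. NOP10 fell in all 3 depletions, by 0.33, 0.27 and 0.32 (SE 0.034). Its 24 nearest genes above background on chromosome 15 had medians of -0.36, -0.51 and -0.44, whose part in the NOP10 result was not tested. NHP2 rose by 0.14 ± 0.043 in siTET1 and fell by 0.14 ± 0.043 in siTET3, and GAR1 was at 0.11, 0.01 and 0.06 (SE 0.083). A dimmer NHP2 cluster was at -0.14 in siTET1, against the direction of the one used, and both NHP2 calls were lost without 1 array (0.13 to 0.15 and -0.13). From siTET1 to siTET2, where 25 small RNAs were higher, NHP2 fell by 0.16 ± 0.043 (adjusted p = 0.0496, lost without any 1 array of either group, at -0.17 to -0.15) and 0 of the 4 rose.

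Of all genes, 34.3%, 36.2% and 36.1% were called in siTET1, siTET2 and siTET3, and of genes above background 45.4%, 48.0% and 47.8%. Of 9 assembly factors, which load the core proteins onto the new RNA, 2 were higher and 2 lower in siTET1, 2 and 4 in siTET2, and 2 and 3 in siTET3 (44.4%, 66.7% and 55.6% called). SHQ1, the chaperone that holds dyskerin before assembly, rose by 0.39 ± 0.052 in siTET1 and 0.17 ± 0.052 in siTET3 (0.13 and 0.14 and not past the test without siNTC or siTET3 replicate 2), and RUVBL2, an ATPase of the assembly complex, fell by 0.38, 0.67 and 0.38. Of 13 Cajal body proteins 5 were higher and 4 lower, 4 and 5, and 4 and 3 (69.2%, 69.2% and 53.8% called). PHAX, which carries small RNAs to Cajal bodies, rose by 0.56 ± 0.053 in siTET1 and 0.40 ± 0.053 in siTET2. In siTET3 PHAX was at 0.13 (past the test without siNTC replicate 1, at 0.18, or siTET3 replicate 1, at 0.19). GEMIN2, part of the SMN complex, rose by 0.54, 0.35 and 0.47 (SE 0.084). GEMIN4 went the other way, at -0.26, -0.38 and -0.26 (SE 0.068), past the test each time. GEMIN5 was at -0.03, -0.21 and -0.10 (SE 0.042), past the test in siTET2 only. WRAP53, which binds the Cajal body signal of these RNAs, fell by 0.31 ± 0.072 and 0.30 ± 0.072 in siTET1 and siTET2 (-0.24 and not past the test in siTET2 without siNTC replicate 1), and coilin, COIL, was at 0.03, -0.02 and -0.06. Of 9 genes of small RNA trimming and the exosome, 1 rose in each depletion and 5, 4 and 3 fell (66.7%, 55.6% and 44.4% called). Of 12 other pseudouridine synthases, which act without a guide RNA, 3, 2 and 2 rose and 5, 6 and 5 fell (66.7%, 66.7% and 58.3% called). Only 2 core proteins of C/D particles were measured through a cluster with 1 symbol, and they moved apart. Fibrillarin, FBL, was higher by 0.26, 0.23 and 0.25 and NOP58 lower by 0.22, 0.25 and 0.23.

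TERC, the RNA template of telomerase, ends in an H/ACA domain and binds the same core proteins, but is transcribed from its own promoter. In siNTC it was at 8.76 and 8.90, in siTET1 at 8.04 and 8.0, in siTET2 at 8.34 and 8.39 and in siTET3 at 7.73 and 8.22. All depletion arrays lay below siNTC. TERC fell to a log2 difference of -0.81 ± 0.12 in siTET1, -0.46 ± 0.12 in siTET2 and -0.85 ± 0.12 in siTET3. The siTET2 call was lost without siTET2 replicate 1 (-0.44) or siNTC replicate 2 (-0.39). Its 24 nearest genes above background had medians of 0.11, 0.08 and 0.13. TERT, the reverse transcriptase, was at 0.01, 0.11 and 0.10 (SE 0.079), and not past the test (adjusted p 0.307 to 0.922).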

How the data were processed

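The authors hybridised labelled cDNA from 250 ng of total RNA to Affymetrix Human Gene 1.0 ST arrays and deposited log2 intensities normalized between arrays. Partek is named in the submitters' processing notes. The sources used here give neither its version nor the method of background correction or probe summary. Of 33297 transcript clusters, 19460 had 1 symbol, 1754 several and 12083 none. A gene with several single-symbol clusters took the cluster of highest mean, for 18417 genes. The number of arrays limits the precision.

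A linear model with a mean for each of the 4 groups was fitted over the 8 arrays (limma 3.58.1, R 4.3.3), with variances moderated along intensity (8.55 prior and 4 residual degrees of freedom) and two-sided tests between each pair of groups. Benjamini-Hochberg adjustment ran over every gene, and an adjusted p under 0.05 was a call. The fit was tested on simulated data. Background was taken from 341 olfactory receptor genes, as the 95th percentile of their means.

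The members and lists were chosen with earlier results of these data known. Members named are SNORA14A, SCARNA7 and the 6 with the largest changes each way against siNTC, and the 3 each way between depletions, among those called without overlap of arrays. SNORA3B, SNORA6, SNORA46, SNORA50A, SNORA2A, SNORA2B, SNORA75, SNORA74A, SCARNA6, SCARNA9, SCARNA9L, SCARNA16 and the SNORA71 members were added after their values were seen, for a shared host or name, a direction or a locus. Hosts are RefSeq genes that contain a member, without regard to strand, which the gene table used here does not give for members. Nearest genes are 12 on each side, taken from genes with a mean above background, without small RNAs, the gene itself or its 1 measured host. Alternatives were each array left out, a 1.5-fold threshold, quantile normalization, median centring, a fit to the 4 arrays compared, no intensity trend, only genes brighter than background, clusters averaged per gene or tested singly, and a replicate block. Arrays were not paired by replicate number in the fit. Correlations of replicate deviations between groups ran from -0.05 to 0.25, highest for siTET1 with siTET3. The 28 clusters with several symbols, 1 of them SNORA or SCARNA, were left out of the counts. Plots were made in Python 3.11.15 with matplotlib 3.10.9.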

Additional observations from a re-analysis of the deposited data

Results flagged for a closer look

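SCARNA7 differed between depletions in opposite directions from siNTC, higher in siTET1 and siTET2 and lower in siTET3, and the difference itself passed the limma test at -1.04 for siTET3 minus siTET1 and -1.10 for siTET3 minus siTET2. SNORA74A was lower than siNTC in siTET1 and higher in siTET3, with a tested difference of 0.46. The number of members that differed was 25 between siTET2 and siTET1, 13 between siTET3 and siTET1 and 32 between siTET3 and siTET2.

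Transcript clusters with several symbols, at least 1 of them SNORA or SCARNA, entered none of the counts above. In a fit of all 33297 clusters, 8, 14 and 9 of these 28 were higher than siNTC in siTET1, siTET2 and siTET3, and 5, 2 and 3 were lower. The share of all clusters called in that fit was not counted. In the fit over genes, 15.6%, 14.4% and 13.8% of all genes were higher and 18.7%, 21.8% and 22.3% lower. The 28 clusters had median differences of 0.01, 0.27 and 0.02, and 27 of them lay above background. Which of the genes named for a cluster gave its signal is not known.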

How the results depend on the processing

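With at least a 1.5-fold change required, the members called fell to 12, 16 and 12 for siTET1, siTET2 and siTET3 against siNTC, and to 2, 3 and 3 for siTET2 minus siTET1, siTET3 minus siTET1 and siTET3 minus siTET2. Without an intensity trend siTET2 minus siTET1 gave 6 calls. Leaving out 1 array at a time gave 33 to 43, 40 to 51 and 32 to 40 calls against siNTC, and 9 to 30, 7 to 20 and 19 to 34 in the 3 comparisons between depletions. The cause of these moves was not tested. With the replicate number as a block the calls were 39, 47, 43, 27, 14 and 33, within 1.5 times of each count. Single genes checked were the 77 members, the TETs and a chosen set of other genes. Some genes named above, such as GATA6 and SOX2, were not in that set. Among the genes checked, 9139 alternative values kept their direction and side of the threshold. Of the other values, 194 passed it newly, 416 no longer passed it, and 1 reversed. That was NHP2 in siTET1 against siNTC, at -0.14 in its dimmer cluster and 0.14 in the one used. With 2 arrays a group, and no probe-level values used here, small differences and members near background are the least certain.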
